A study of Mus musculus with 36 samples.

Results

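The oxidative phosphorylation genes examined here are 41 nuclear genes for subunits of the respiratory chain, the electron carrier cytochrome c and the ATP synthase. They were chosen by gene symbol, and 38 of the 41 are among the 19057 genes that the array names. The 41 are 18 in complex I, 4 in complex II, 6 in complex III, cytochrome c (Cycs), 8 in complex IV and 4 in complex V. The study measured transcripts of Lewis lung carcinoma (LLC), a mouse lung tumour line, grown as tumours in male mice. The hosts were young or middle-aged and either received no radiation or had 5 exposures of 0.2 Gy to 56Fe, iron nuclei of the kind found in cosmic rays. There were 10 tumours from young unirradiated, 8 from young irradiated, 7 from middle-aged unirradiated and 5 from middle-aged irradiated hosts, and every tumour grew from the same line. A further 6 arrays held RNA of the LLC cells themselves as technical controls, 3 in each of 2 batches. RNA came from small pieces of tumour, so it holds host cells beside tumour cells. The sources used here give neither strain nor age in months. The study calls the tumours biological replicates without tying each to an animal, and the p-values rest on the spread from sample to sample, which may in part be technical.

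Oxidative phosphorylation takes place at the inner mitochondrial membrane. Complex I takes electrons from NADH and complex II takes them from succinate, complex III passes them to cytochrome c, and complex IV hands them to oxygen. Complexes I, III and IV pump protons, and complex V, the ATP synthase, lets them back to make ATP. Most subunits are encoded in the nucleus, and a small core of subunits is encoded by mitochondrial DNA, so both genomes supply each of these complexes except complex II, which is wholly nuclear. Tumour cells are known for making much of their ATP by glycolysis even with oxygen present, while many also keep a working respiratory chain.

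Nuclear factors that act on these genes have known core motifs, and promoters are shown to let a reader see where such letters lie; each is that of the complex's member with the smallest p between tumours and cells, among members with a promoter entry. RefSeq promoters of 300 bases, from 250 before to 50 after the annotated gene start, matched 30 of the 41 members. Shares are of genes, and a gene with several promoters counted if any of them held the motif. The core of nuclear respiratory factor 1 (NRF1), CGCATGCG, reads the same on both strands. It was in 3 of the 30 (10.0%), namely Cycs, Ndufa8 and Uqcrc1, and in 2.07% of all 27025 genes with promoters of this length. The ETS core CCGGAAG, the kind of site that GABP reads, was in 6 of 30 on either strand (20%) against 9.93% of all these genes. The YY1 core AAGATGG was in 4 of 30 (13.3%) against 7.28%, and the half-site of the ERR receptors, AAGGTCA, was in 1 of 30 (3.33%) against 5.38%. At least 1 of the 4 motifs lay in 13 of 30 members (43.3%) and in 22.4% of all these genes. These shares describe letters in a window and no binding was measured. Of the 6 promoters taken by this rule, those of Cox7a2 (complex IV), Atp5c1 (complex V) and Ndufv2 (complex I) held none of the 4 motifs. The promoter of Ndufv2 lies at chr17:66101510-66101809 on the minus strand, that of Sdhb at chr4:140961021-140961320 on the plus strand, that of Uqcrc1 at chr9:108936398-108936697 on the plus strand and that of Cycs at chr6:50566520-50566819 on the minus strand (GRCm38.p6). Capitals mark the ETS core in Sdhb, which begins 6 bases after the annotated start, and the NRF1 core in Uqcrc1 and Cycs, which begins 31 bases after and 61 bases before it. Each is written 5′ to 3′ on the gene's own strand.
Ndufv2: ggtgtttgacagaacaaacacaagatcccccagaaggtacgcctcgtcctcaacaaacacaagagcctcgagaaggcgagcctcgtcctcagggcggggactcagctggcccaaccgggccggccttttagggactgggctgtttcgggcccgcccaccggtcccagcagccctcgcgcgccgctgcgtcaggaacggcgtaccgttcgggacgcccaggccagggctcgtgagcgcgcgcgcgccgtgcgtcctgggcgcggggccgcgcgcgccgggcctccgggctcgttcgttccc
Sdhb: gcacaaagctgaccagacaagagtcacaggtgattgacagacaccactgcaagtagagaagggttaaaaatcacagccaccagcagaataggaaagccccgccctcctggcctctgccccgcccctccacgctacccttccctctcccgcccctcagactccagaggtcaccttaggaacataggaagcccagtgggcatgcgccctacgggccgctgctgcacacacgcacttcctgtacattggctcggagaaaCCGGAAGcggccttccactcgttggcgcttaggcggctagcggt
Uqcrc1: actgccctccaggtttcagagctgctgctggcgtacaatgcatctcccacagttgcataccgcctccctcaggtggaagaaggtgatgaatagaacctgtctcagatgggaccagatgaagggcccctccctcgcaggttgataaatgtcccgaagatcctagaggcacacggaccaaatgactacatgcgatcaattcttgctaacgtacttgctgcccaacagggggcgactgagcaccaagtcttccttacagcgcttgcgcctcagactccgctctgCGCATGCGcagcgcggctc
Cycs: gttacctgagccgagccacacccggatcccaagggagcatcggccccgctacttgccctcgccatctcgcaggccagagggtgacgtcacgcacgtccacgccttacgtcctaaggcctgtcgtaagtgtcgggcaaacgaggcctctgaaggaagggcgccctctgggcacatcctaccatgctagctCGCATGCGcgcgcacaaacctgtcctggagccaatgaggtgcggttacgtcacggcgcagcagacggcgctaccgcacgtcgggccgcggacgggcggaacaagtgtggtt

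Of the 41 members, 38 had at least 1 probe paired with their symbol, 54 probes in all. Uqcrb, Cox7c and Cox8a had no probe named for them in the probe table and are not analysed here. Levels are background-corrected, quantile-normalized log2 signals, the brightest probe over the tumours stands for its gene, and genes detected on at least 5 tumours were tested. The filter kept 35 members: 17 of complex I, 3 of complex II, 4 of complex III, Cycs, 6 of complex IV and 4 of complex V. The probes of Ndufs1, Sdha and Uqcrfs1 were detected on none of the 36 arrays, so nothing can be said here of these subunits, which carry iron-sulphur clusters or, in Sdha, the flavin. The tested members were well expressed: 34 of 35 were detected on all 30 tumours, Uqcrq on 29, and all 35 were detected on all 6 cell arrays. Most members varied little between tumours, with 28 of 35 below the median spread of all genes and 7 above it, among them Uqcrq, Sdhd, Ndufb9 and Atp5a1. The 7 had dimmer probes, with mean tumour levels from 8.00 (Sdhd) to 9.56 (Ndufb10). Apart from Cox7a2 at 7.73, the 28 ran from 10.03 (Sdhb) to 14.35 (Atp5b). The part of probe brightness in the spread was not tested. The median standard deviation within groups was 0.20 on the log2 scale over the 35 members, from 0.09 for Atp5b to 0.46, against a median of 0.31 over all 10908 genes tested between tumours. Levels of different probes are not compared with each other as amounts of transcript, since probes differ in brightness.

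Some arrays stood apart. Dim arrays were young irradiated replicates 6 and 8, on which 11860 and 14828 probes were detected. Bright ones were replicate 2 of the young irradiated and replicate 1 of the middle-aged unirradiated group, with a raw signal at the 75th percentile of 1123 and 863, against a median of 215 in young unirradiated tumours. Counts without these arrays are given where they move a result. The marker check fitted the labels in part: of 12 markers of carcinoma and lung epithelium, Krt8 and Krt18 were detected on all tumours and all cell arrays, and 8 of the 12, the surfactant genes among them, were detected on no cell array.

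Tumours were set against LLC cells to see how the members' transcripts in tumour tissue differ from those of the line. No member was higher in tumours and 5 of 35 were lower: Ndufv2 and Ndufs3 of complex I, Cyc1 of complex III, cytochrome c (Cycs) and Cox7a2 of complex IV (limma, Benjamini-Hochberg adjusted p under 0.05). Of all 11106 genes tested, 8.76% were lower and 11.4% were higher, and the members' share of 14.3% on the lower side rests on 5 genes. Most members lay below 0 without passing: 29 of the 35 members were below 0, against 54.3% of all genes, and the median difference was -0.44 over the members and -0.07 over all genes. The cell arrays entered this test as 1 sample, their mean, because they are technical controls, and that sample is assumed to vary like the tumours. Within groups, the mean over the members had an SD of 0.13 between single cell arrays and 0.06 between tumours.

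**Figure D1:**
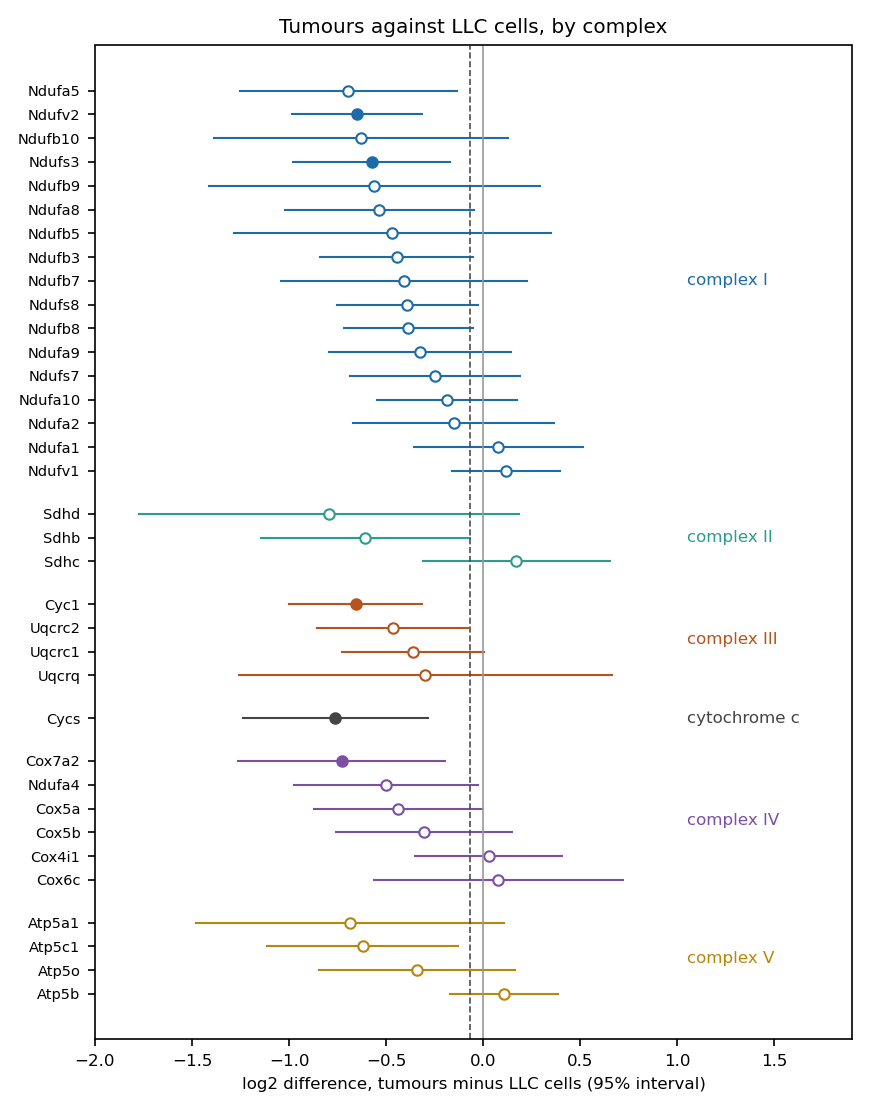
Log2 difference of each of the 35 tested members between 30 tumours and the mean of 6 LLC cell arrays, grouped by complex. Points are limma estimates and lines their 95% intervals; filled points passed an adjusted p of 0.05, the solid line is at 0 and the dashed line is the median of all genes tested (-0.07). Of the members, 29 lie below 0.

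Ndufv2 is an iron-sulphur subunit of the NADH-oxidising arm of complex I. Its log2 level ran from 11.65 over a median of 11.93 to 12.23 in the 30 tumours and from 12.56 over 12.60 to 12.67 on the 6 cell arrays, so every tumour lay below every cell array. The difference was -0.65 (SE 0.16, 95% interval -0.98 to -0.31, adjusted p = 0.00442 by limma), which is 1.57-fold lower. Ndufs3, a core subunit of the arm that carries electrons to ubiquinone, ran from 10.29 over 10.57 to 10.95 in tumours and from 10.89 over 11.18 to 11.36 in cells. The 2 highest tumours reached the lowest cell array, and it was lower by -0.58 (SE 0.20, adjusted p = 0.0375 by limma).

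Cyc1, the cytochrome c1 of complex III that passes electrons to cytochrome c, ran from 10.84 over 11.14 to 11.37 in tumours and from 11.44 over 11.81 to 12.02 in cells. The groups did not overlap, and the difference was -0.66 (SE 0.17, 95% interval -1.0 to -0.31, adjusted p = 0.00494 by limma). Cycs, the mobile carrier between complexes III and IV, ran from 10.88 over 11.48 to 12.03 in tumours and from 11.89 over 12.32 to 12.49 in cells. Only the 2 bright arrays (12.03 and 11.99) reached the lowest cell array, and the next highest tumour was at 11.76. The difference was -0.76 (SE 0.23, 95% interval -1.24 to -0.29, adjusted p = 0.0181 by limma), or 1.70-fold lower. The carrier and the subunit that loads it were thus both lower in tumours.

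Cox7a2, a small nuclear-encoded subunit of complex IV, had a dim probe, with tumour levels from 7.31 over 7.71 to 8.24 and cell levels from 7.91 over 8.44 to 9.10. The groups overlapped, and the difference was -0.73 (SE 0.26, adjusted p = 0.0455 by limma). In complexes II and V no member passed. The smallest p of complex II was that of Sdhb, its iron-sulphur subunit, with levels from 9.49 over 10.02 to 10.45 in tumours and from 10.27 over 10.71 to 10.89 in cells (-0.61, SE 0.27, adjusted p = 0.106 by limma). In complex V it was that of Atp5c1, the central stalk's gamma subunit, from 12.82 over 13.04 to 13.88 in tumours and from 13.51 over 13.69 to 13.89 in cells (-0.62, SE 0.24, adjusted p = 0.0660 by limma). Both genes had most tumours below the cells, with overlap.

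**Figure D2:**
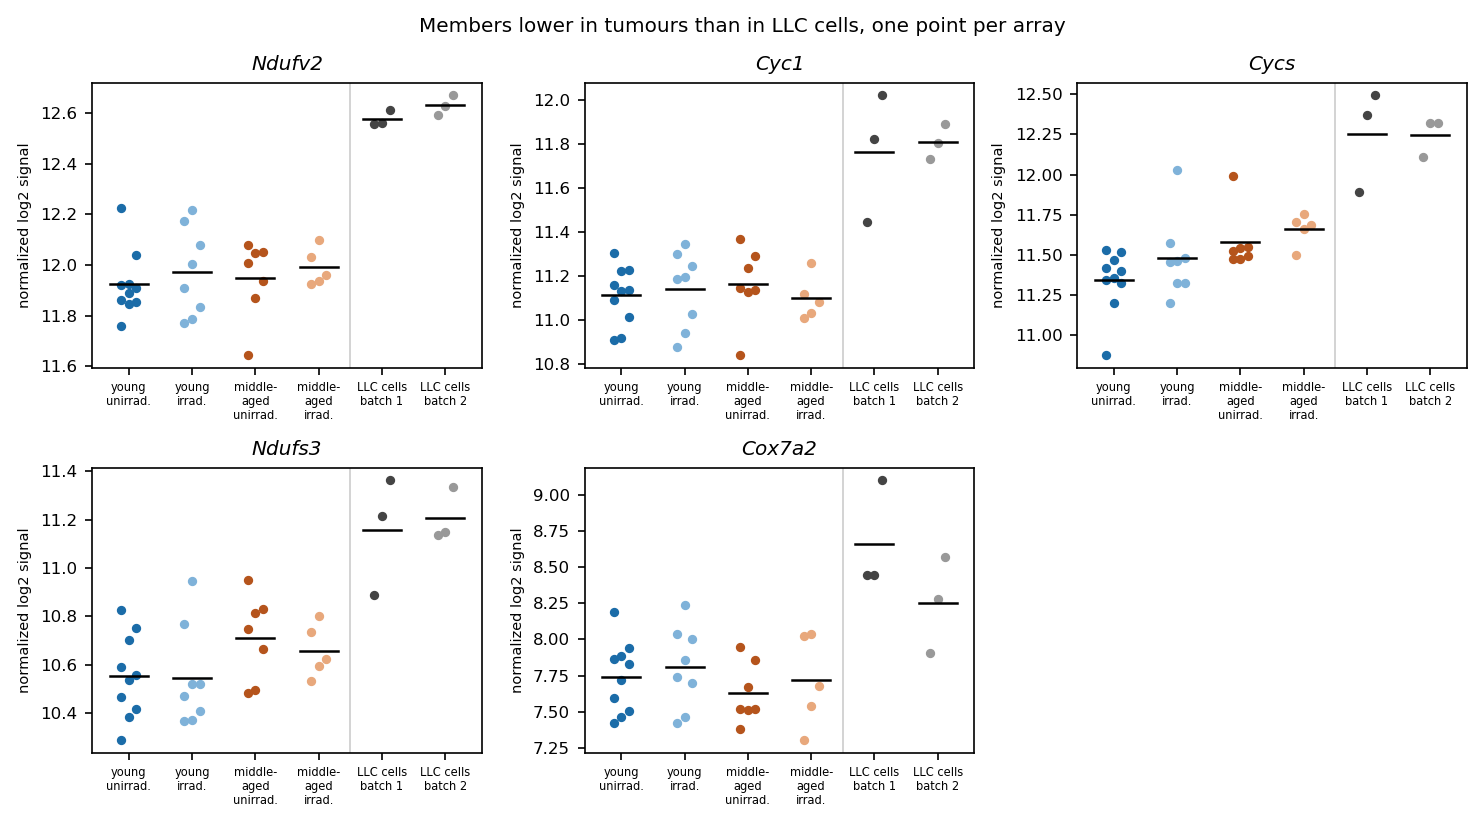
Normalized log2 signal of the 5 members that passed the test between tumours and LLC cells; each point is 1 array, bars are group means, and the grey line parts the 4 tumour groups from the 2 cell batches. For Ndufv2 and Cyc1 all 30 tumours lie below all 6 cell arrays. The vertical axes do not start at 0.

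Without overlap between all tumours and all cell arrays, 3 of 35 members were lower (Ndufv2, Cyc1 and Uqcrc2, a core protein of complex III), against 8.93% of all genes, a share near the background. The medians of the 5 complexes lay near each other. The median difference was -0.41 in complex I, -0.61 in complex II, -0.41 in complex III, -0.37 in complex IV and -0.48 in complex V. Each complex but III also held members on the other side of 0, none of which passed. Values near or above 0 belonged to Ndufv1 (0.12), the flavin subunit beside Ndufv2, Ndufa1 (0.08), the complex II membrane anchor Sdhc (0.17), Cox4i1 (0.03) and Cox6c (0.08) of complex IV, and the catalytic beta subunit Atp5b (0.11). Their 95% intervals all spanned 0, from -0.16 to 0.40 for Ndufv1 and from -0.17 to 0.39 for Atp5b. The lowest value of all was that of Sdhd, the other membrane anchor of complex II (-0.79, SE 0.48, adjusted p = 0.267 by limma), whose tumour levels spread widely. Ndufa4, once assigned to complex I and since placed in complex IV, stood at -0.50, and counting it with complex I gave medians of -0.43 and -0.30 for complexes I and IV.

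Summed over the members, the 2 kinds of sample parted. The mean log2 level over the 35 members ran from 10.93 over 11.09 to 11.22 in the 30 tumours and from 11.34 over 11.48 to 11.66 on the 6 cell arrays. Every tumour was below every cell array. The same held for the means over complex I, 10.72 to 10.97 in tumours and 11.02 to 11.42 in cells, and over complex III, 10.29 to 10.93 and 11.03 to 11.23, while the ranges overlapped in complexes II, IV and V and for Cycs. In complex V the overlap came from the bright young irradiated replicate 2 alone, at 12.59. The next tumour was at 12.41 and the lowest cell array at 12.45. For Cycs it came from the 2 bright arrays alone. These means are a description, since the members were chosen with results of these data known.

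**Figure D3:**
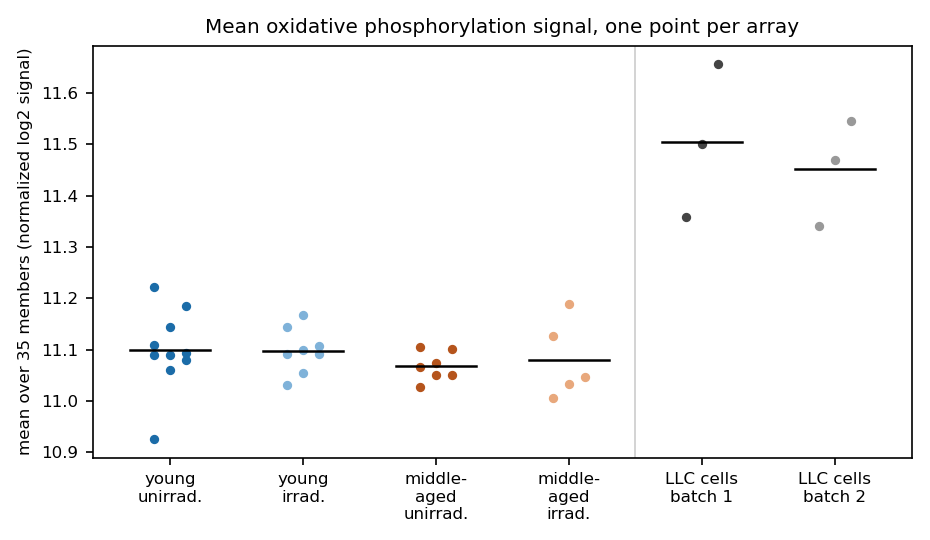
Mean normalized log2 signal over the 35 tested members, 1 point per array and a bar for each group's mean. All 4 tumour groups lie between 10.93 and 11.22, and the 6 cell arrays between 11.34 and 11.66. The vertical axis does not start at 0.

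Further probes of the same genes were mostly lower too. In 9 members a further probe was detected, 11 probes in all, and 10 of these were below 0 between tumours and cells, 7 of them with a larger difference than the brightest probe. The dimmer probe of Atp5o, a subunit of the stator stalk of the ATP synthase, differed by -1.45 where its bright probe differed by -0.34. That of Ndufa5 differed by -1.26 against -0.70 and that of Ndufb8 by -1.15 against -0.39. The further probes of Cycs stood at -1.03 and -0.85. The probes of Atp5a1, the alpha subunit of the ATP synthase, differed in sign, at -0.69 for the bright and 0.07 for the dim one. With every probe as its own feature, 7 of 46 member probes were lower, against 8.93% of all 21674 probes.

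Calls for Ndufv2, Cyc1 and Cycs were made under 52 of the 53 alternatives run, all but median scaling, which called no member. Of the 53, 36 only left out a single array, so they are close to the main fit and to each other. Ndufs3 passed under 48 and Cox7a2 under 36. The count of members called ranged from 4 to 7 under most alternatives, but was 8 with probes averaged and 8 without the bright arrays. It was 9 with array brightness as a covariate, 9 without the dim and bright arrays and 17 with the cell batches as separate samples. Without replicate 1 of cell batch 1 it was 3.

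Host cells came with the tumours, and their markers moved with this comparison. Of 13 macrophage markers, 12 were higher in tumours and 11 were detected on no cell array; their mean log2 level was 9.06 to 10.29 in tumours and 5.16 to 5.27 in cells. Of 12 endothelial markers 7 were higher (7.25 to 8.47 against 5.62 to 5.84), of 11 tested fibroblast markers 6 (9.09 to 10.73 against 6.61 to 6.87) and of 7 red cell markers 3 (7.88 to 11.87 against 4.92 to 5.05). Of 11 tested neutrophil markers 4 were higher, and of 15 tested skeletal muscle markers 0 passed by limma, also 0 at an unadjusted p under 0.05. With the muscle markers as a covariate the members' median difference was -0.43, against -0.44. The part of the other host cells in the members' differences was not tested. In bulk RNA, fewer cells with a high level and less RNA per cell cannot be told apart.

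The genes around the members were taken from lists of the same pathway. Of 32 other nuclear subunits tested, Ndufab1, the mitochondrial acyl carrier protein that is also a complex I subunit (-1.08, adjusted p = 0.000160 by limma), and Ndufb6 (-0.70, adjusted p = 0.0436) were lower, and Cox7a2l, a factor that joins complexes III and IV into supercomplexes, was higher (0.77, adjusted p = 0.0103). Their median was -0.30. Of the assembly factors, proteins that build the complexes without staying in them, 14 of 37 passed, all lower, with a median of -0.73. They included Sco1, a copper chaperone of complex IV (-1.09), Tmem70, a factor for the ATP synthase (-1.69), and Bcs1l, which inserts the iron-sulphur protein into complex III (-1.07). Of 14 regulators of mitochondrial biogenesis, Tfam, which packages mitochondrial DNA (-0.94, adjusted p = 0.00442 by limma), and Tfb2m, a factor of mitochondrial transcription (-0.91, adjusted p = 0.0107 by limma), were lower. Of 15 genes of the citric acid cycle, which supplies NADH and succinate, 4 were lower, among them Fh1 (-1.01), Cs (-0.61) and Suclg1 (-0.74), and the median was -0.48.

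Of the mitochondrially encoded subunits, 0 of 7 tested transcripts passed by limma, at an unadjusted p under 0.05 the count was also 0, and the median was 0.21. The mean log2 level over this list overlapped, from 10.80 to 11.87 in tumours and from 11.25 to 11.59 in cells. How the 7 differ from the nuclear subunits was not tested. In glycolysis, 1 of 13 genes passed, the glucose transporter Slc2a1, higher by 1.36 (adjusted p = 0.0193 by limma), and the median was 0.01. None of 6 genes that brake the chain passed (unadjusted p under 0.05 for 1), nor did the 3 tissue isoforms that were tested (0 at that level).

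**Figure D4:**
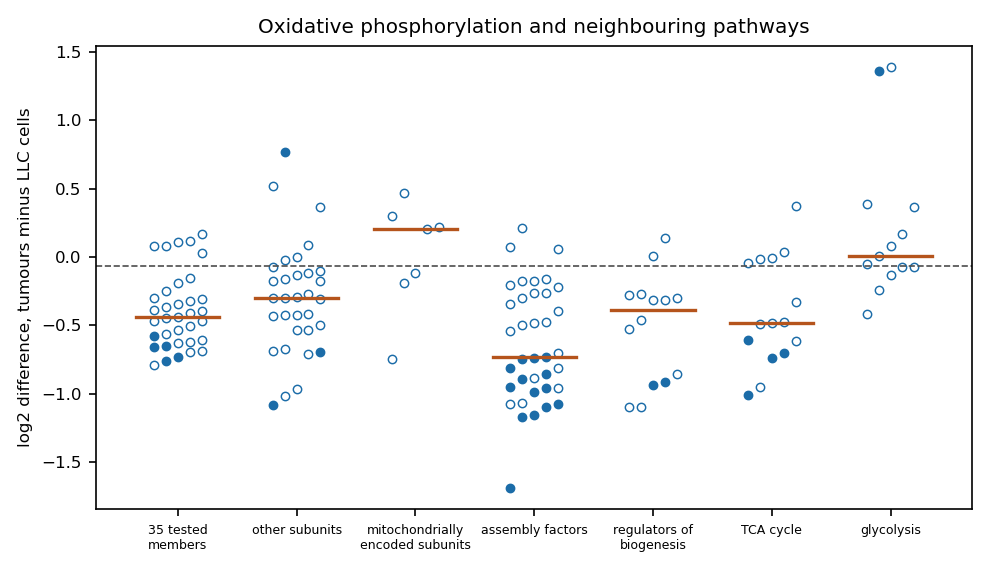
Log2 difference between tumours and LLC cells for each tested gene of the members and of 6 neighbouring lists. Each point is 1 gene, filled where it passed an adjusted p of 0.05, orange bars are list medians and the dashed line is the median of all genes tested (-0.07); 14 of 37 assembly factors passed, all lower, against 5 of 35 members.

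Skeletal muscle is rich in mitochondria, and some pieces carried its transcripts. The mean over the muscle markers was above 8 in 6 tumours, from 8.17 to 11.04, and between 5.16 and 6.92 in the other 24. The members' mean did not set these tumours apart: it was 11.01 to 11.19 in the 6 and 10.93 to 11.22 in the 24. Of the muscle isoforms of complex IV, Cox8b and Cox6a2 did. Cox8b was detected in 6 of 6 and in 0 of 24, at 5.54 to 8.47 against 4.59 to 5.05, and Cox6a2 was detected in 6 of 6 and 6 of 24, at 6.87 to 9.92 against 4.75 to 6.50. Cox7a1 was detected in 6 of 6 and 23 of 24, with overlapping levels of 6.28 to 7.86 and 5.97 to 7.61. The 6 tumours were told apart by their own muscle markers, so these values carry no test.

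Host age was compared in unirradiated mice, 7 middle-aged against 10 young. No member passed by limma, and 0% of all 10908 genes did. At an unadjusted p under 0.05 there were 13 of 35 members, against 13.8% of all genes. Their median difference was 0.02, and 16 of 35 lay below 0, so the members lay on both sides. The 3 lower and the 3 higher members with the smallest p are described here, and none passed.

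Sdhd, a membrane anchor of complex II, ran from 7.25 over 8.42 to 8.92 in young unirradiated and from 7.07 over 7.61 to 8.19 in middle-aged unirradiated tumours. Its difference was -0.75 (SE 0.19, 95% interval -1.14 to -0.36, adjusted p = 0.131 by limma), and the groups overlapped. Atp5a1 ran from 8.83 over 9.51 to 10.04 in young and from 8.65 over 8.87 to 9.57 in middle-aged tumours (-0.51, SE 0.16, adjusted p = 0.202 by limma), while its second probe differed by -0.08. Ndufb9, of the membrane arm of complex I, ran from 7.70 over 8.46 to 8.98 and from 7.05 over 7.95 to 8.25 (-0.58, SE 0.18, adjusted p = 0.202 by limma). In these 3 genes the middle-aged tumours were mostly low, with overlap. Their arrays were also brighter at the median. The raw signal at the 75th percentile ran from 213 over 268 to 863, against 160 over 215 to 334 in young tumours. With array brightness as a covariate, 0 genes passed by limma and the median difference over all members was 0.022, against 0.017. The part of brightness in the differences of these 3 genes was not tested beyond this fit.

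The members on the higher side differed less. Ndufa9, an accessory subunit beside the ubiquinone site of complex I, ran from 10.74 over 10.97 to 11.39 in young and from 10.95 over 11.37 to 11.69 in middle-aged tumours (0.31, SE 0.10, adjusted p = 0.206 by limma). Ndufb3, of the membrane arm, ran from 9.97 over 10.13 to 10.58 and from 10.10 over 10.41 to 10.57 (0.24, SE 0.09, adjusted p = 0.238 by limma). Atp5o ran from 11.89 over 12.26 to 12.51 and from 12.34 over 12.55 to 12.78 (0.29, SE 0.11, adjusted p = 0.264 by limma), with its second probe at -0.05. All 6 overlapped between the ages.

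**Figure D5:**
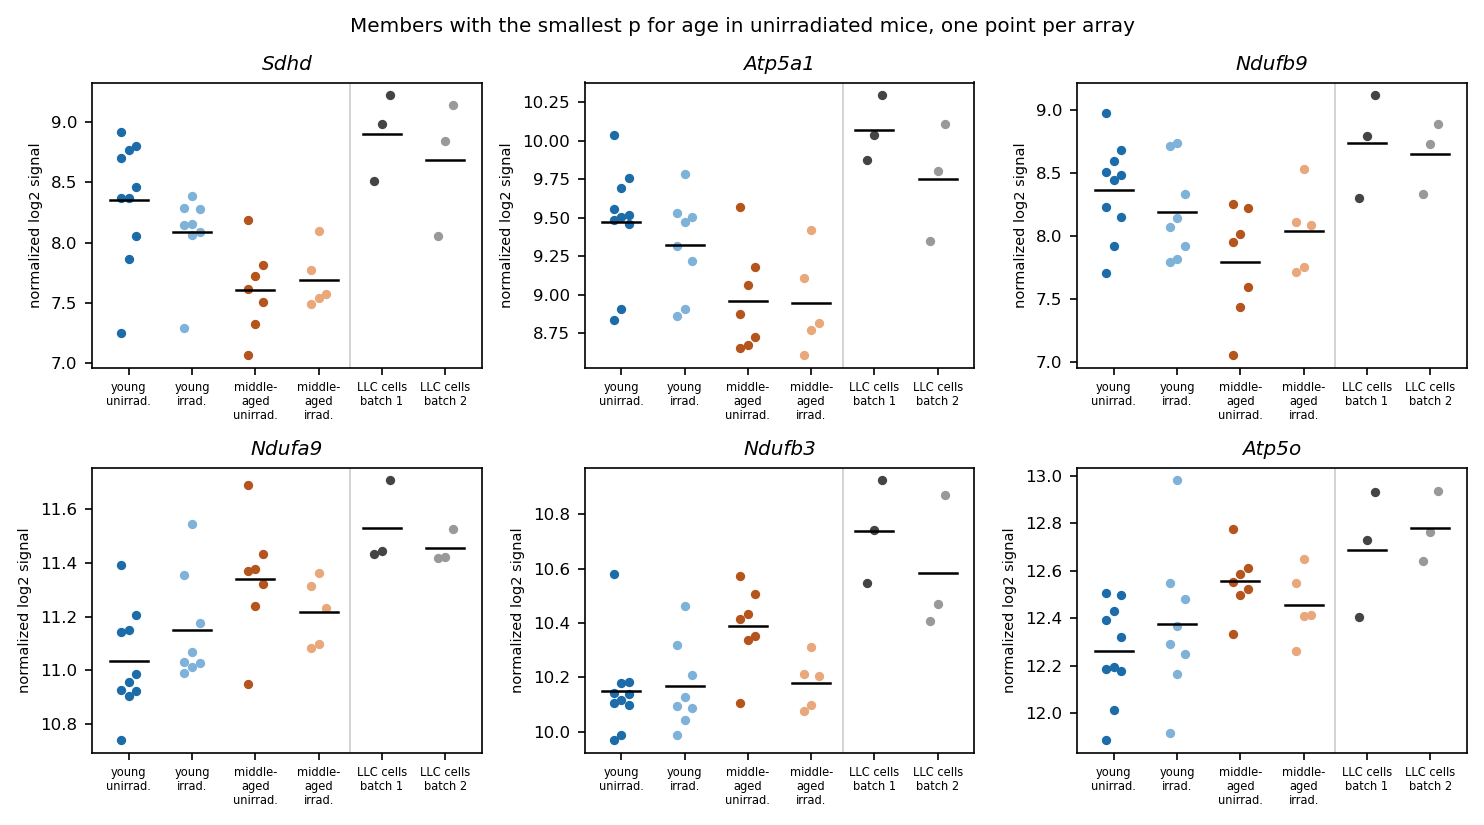
Normalized log2 signal of the 3 lower and 3 higher members with the smallest p for age in unirradiated mice; each point is 1 array, bars are group means, and the grey line parts tumours from LLC cells. Sdhd has a mean of 8.36 in young and 7.60 in middle-aged unirradiated tumours, and the points of both groups overlap. The vertical axes do not start at 0.

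Markers of some other cells also lay lower with age. All 15 tested muscle markers were below 0, with a median of -1.35, as were 11 of 11 neutrophil markers (median -0.59), 7 of 7 red cell markers (-0.47) and 11 of 12 endothelial markers (-0.36), and none passed by limma. Macrophage markers (4 of 13 below 0, median 0.19) and fibroblast markers (4 of 11, median 0.02) did not lie lower. The mean over the muscle markers ran from 5.21 over 5.60 to 11.04 in young and from 5.16 over 5.31 to 6.92 in middle-aged unirradiated tumours. With the muscle markers as a covariate the members' median difference was 0.015, against 0.017. Without the tumours whose muscle markers had a mean above 8 it was 0.012. No member passed in either fit. The part of the other cells in the members' values was not tested.

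Weighting arrays by their quality changed this count. With limma's array weights 6 members passed, Sdhd (-0.81, adjusted p = 0.0127 by limma), Ndufb10 (-0.53), Ndufb9 (-0.63) and Atp5a1 (-0.54) lower and Ndufa9 (0.31) and Ndufb3 (0.25) higher, and so did 424 of all genes. Without young unirradiated replicate 5, Sdhd and Ndufb10 passed (-0.87 and -0.57) among 128 genes. Over the other alternatives no member passed.

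Within groups, the members formed no single block. Over the 595 pairs of members, Pearson's r of their deviations from the group means across the 30 tumours had a median of 0.01 and ran from -0.77 to 0.82. These are descriptions over shared arrays, with no test. Pairs within complex I had a median r of 0.03 and pairs of different complexes 0.01. The highest r was that of Ndufa2 and Ndufa5, accessory subunits of complex I, and the lowest that of Ndufb3 and Sdhd. Sdhd, Atp5a1 and Ndufb9 went together (r of 0.69 to 0.77). Ndufa9, Ndufb3 and Atp5o went together (0.48 to 0.70), and across these sets r was -0.77 to -0.08. In young irradiated tumours, the second set's mean minus the first's was smallest on the dim replicates 8 and 6 (2.19 and 2.26). It was 3.08 on the bright replicate 2, against a group mean of 2.70, and highest, at 3.31, on replicate 1 (raw 75th percentile 268). Among middle-aged unirradiated tumours it was 3.31 on the bright replicate 1, against a group mean of 3.31, and 3.88 on replicate 3 (254). Among young unirradiated tumours it was 1.82 on replicate 10 (raw 75th percentile 191), 3.56 on replicate 5 (240) and 2.58 on replicate 1 (334). The part of array brightness in these r values was not tested. Among all tested genes outside the members, those whose deviations followed the mean of the members most closely were Pf4 (r = 0.70), Spire1 (0.66) and Cct5 (0.66) over the 30 tumours.

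Irradiation was compared at each age. In young mice, 8 irradiated against 10 unirradiated tumours, 0 of 35 members and 0% of all genes passed by limma, with 2 members and 603 genes at an unadjusted p under 0.05. The members' median difference was 0.03. On the lower side Uqcrq, a small subunit of complex III, stood at -0.47, Ndufa10 at -0.12 and Sdhd at -0.27, and on the higher side Atp5c1 at 0.24, Ndufs8 at 0.12 and Cycs at 0.14, all with adjusted p of 0.889 or above. Single arrays carried much of several of these values. Without the bright replicate 2 of the young irradiated group Atp5c1 stood at 0.15 and Cycs at 0.058, and Cycs stood at 0.085 without young unirradiated replicate 6. Uqcrq stood at -0.17 without the dim arrays, Sdhd at -0.15 without young irradiated replicate 1, and Ndufa10 at -0.081 without young irradiated replicate 7. The further probes of Cycs differed in sign from the bright one, at -0.16 and -0.16.

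In middle-aged mice, 5 irradiated against 7 unirradiated tumours, 0 of 35 members and 0% of all genes passed by limma, with 2 members and 695 genes at an unadjusted p under 0.05. The median was -0.02. Ndufb3 (-0.21), Ndufa5 (-0.24) and Ndufa1 (-0.16) lay lower and Cox6c (0.42), Ndufb10 (0.37) and Sdhb (0.27) higher, with a smallest adjusted p of 0.675 for Cox6c, a subunit of complex IV. Without middle-aged irradiated replicate 1, Ndufa1 stood at -0.085. A second probe of Ndufa5 stood at 0.12, and those of Sdhb at 0.11 and -0.37. The difference between the irradiation effects of both ages was called for 0 of 35 members and 0% of genes by limma, 1 member and 480 genes having an unadjusted p under 0.05. Its median was -0.03. Ndufb3 (-0.23), Ndufa9 (-0.24) and Ndufb8 (-0.18, second probe 0.30) lay on the lower side and Cox6c (0.52), Ndufb10 (0.38) and Ndufb9 (0.43) on the higher. Ndufb10 stood at 0.25 without the bright young irradiated array, and Ndufa9 at -0.13 without both bright arrays.

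Age in irradiated mice, 5 middle-aged against 8 young tumours, gave 0 of 35 members and 0% of genes by limma, with 3 members and 791 genes at an unadjusted p under 0.05 and a median of 0.01. Ndufs7 (-0.28), an iron-sulphur subunit of complex I, Ndufb5 (-0.52) and Atp5a1 (-0.38, second probe 0.13) lay lower and Ndufa10 (0.20), Atp5b (0.14) and Cycs (0.18, further probes -0.02 and -0.01) higher. Without the dim and bright arrays Atp5b stood at 0.089 and Ndufa10 at 0.12. Middle-aged irradiated tumours against young unirradiated ones, the study's reference group, gave 0 of 35 members and 0.0183% of genes by limma, with 5 members and 653 genes at an unadjusted p under 0.05 and a median of 0.05. Sdhd (-0.66), Atp5a1 (-0.53, second probe -0.05) and Ndufs7 (-0.21) lay lower, and Cycs (0.32, further probes -0.18 and -0.18), Ndufs8 (0.19) and Uqcrc2 (0.20) higher. These comparisons share groups with each other, so a like value in 2 of them is no second observation.

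Over all members the 4 tumour groups lay close together. The mean over the members was 11.10 ± 0.08 (SD, n = 10) for young hosts without radiation. Young irradiated hosts gave 11.10 ± 0.04 (SD, n = 8). Among middle-aged hosts it was 11.07 ± 0.03 (SD, n = 7) without and 11.08 ± 0.08 (SD, n = 5) with radiation, and these groups overlapped.

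No pathway list held a called gene in any comparison between tumour groups by limma. In unirradiated mice, the numbers at an unadjusted p under 0.05 with age were 8 of 32 other subunits, 8 of 37 assembly factors, 2 of 15 genes of the citric acid cycle and 1 of 7 mitochondrially encoded subunits, the last with a median of -0.16. The 2 batches of LLC cells differed in 0 of 35 members and 0% of 9240 genes by limma, with 0 members and 272 genes at an unadjusted p under 0.05. The mean over the members was 11.36, 11.50 and 11.66 on the arrays of batch 1 and 11.34, 11.47 and 11.55 on those of batch 2, so the batches overlapped.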

How the data were processed

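Transcripts of 36 samples were measured on Illumina Mouse WG-6 bead arrays with 45281 probes. Per the file headers, the deposited table gives a non-normalized mean bead intensity per probe with its detection p-value on every array; GenomeStudio is named in the submitters' processing notes, with no version given in the sources used here. The authors also deposited a table of normalized intensity, which the series text ascribes to rank variant normalization; the exact method is not stated there, so the table was used only as an alternative, floored at 1.

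Intensities of all 36 arrays were corrected with neqc (offset 16, negative controls inferred from the detection p-values), quantile normalized and taken to log2 in limma 3.58.1 (R 4.3.3). Of the probes, 34885 carried 1 gene symbol and 10378 were not named. The brightest probe over the tumours stood for a gene, and genes detected at p under 0.05 on at least 5 tumours (10908 genes), on at least 5 of all arrays for tumours against cells (11106) or on 3 cell arrays (9240) were tested. One limma fit of 4 group means gave the tumour comparisons, and Benjamini-Hochberg adjustment ran over all genes tested, with a threshold of 0.05. The number of arrays limits the precision. No array pair was identical. The fits were run on simulated data with known changes. A least recovery of these was required of the tumour-group and cell-batch fits simulated, and not of tumours against cells. The members and lists were chosen with earlier results of these data known. Replicate numbers did not pair the samples: over 37 pairs of same-numbered tumours r ran from -0.34 to 0.40. Between tumour groups the 3 members with the smallest p in each direction are named where none passed, and in tumours against cells those past the threshold and the smallest p of each complex; of each list at most 3 called genes are named. Alternatives changed the values, background step, scaling, probe rule, filter, weights, covariates and arrays included. Promoters are RefSeq sequences (GRCm38.p6).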

Additional observations from a re-analysis of the deposited data

Results flagged for a closer look

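Each tested member and the mean over the members were looked at in each of the 4 tumour groups, 144 looks in all. In 16 of them, each for a single member, 1 array stood away from the others by Dixon's criterion at the 95% level, which chance alone meets in about 1 of 20 groups. The bright array of young irradiated replicate 2 supplied 5 of these: Atp5c1 at 13.88 (nearest 13.32), Cox5a at 13.16 (12.53) and Cycs at 12.03 (11.57) were high, and Cox5b at 12.86 (13.45) and Ndufb7 at 7.11 (7.96) were low. The other bright array, middle-aged unirradiated replicate 1, supplied 4, with Cycs high at 11.99 (nearest 11.55) and Ndufa10 at 12.19 (12.39), Ndufs7 at 10.90 (11.23) and Sdhc at 11.12 (11.58) low. Middle-aged irradiated replicate 1 had Atp5c1 high at 13.51 (13.11) and Ndufa8 low at 11.35 (11.53).

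Single arrays gave the rest. Cycs was low in young unirradiated replicate 6 at 10.88 (11.20), Ndufb3 was high in young unirradiated replicate 5 at 10.58 (10.18), and Sdhd was low in young irradiated replicate 1 at 7.29 (8.06). In middle-aged unirradiated tumours, Ndufa5 was low in replicate 6 at 10.63 (11.12) and Ndufs8 was high in replicate 2 at 11.70 (11.41). The causes were not tested.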

How the results depend on the processing

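Between tumours and LLC cells 5 members were lower. The count was 0 with median scaling, 8 with the mean of detected probes, 9 with brightness as a covariate, 17 with the cell batches as separate samples, 8 without the bright arrays and 9 without the dim and bright arrays. Leaving out 1 array gave 3 to 7 members, 2168 to 2567 calls over all genes and a member median of -0.46 to -0.38; the 3 came without replicate 1 of cell batch 1, and were Ndufv2, Cyc1 and Cycs. Over all genes the calls were 474 with median scaling and 4280 with separate batches, against 2238. Median scaling moved the median over all genes to -0.37 and that of the members to -1.27, a difference of -0.91 in place of -0.37. The settings without muscle-rich, bright, or dim and bright arrays, and the one with every probe as a feature, were chosen after seeing the data.

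For age in unirradiated mice, array weights called 6 members and 424 genes, the authors' values 1 gene and leaving out the dim arrays 29. Leaving out 1 array gave 0 to 2 members and 0 to 128 genes (128 without young unirradiated replicate 5, 3 without middle-aged unirradiated replicate 6), with a member median of -0.01 to 0.03. The other tumour comparisons called 0 members under each alternative run. Their calls over all genes were 233 with array weights for irradiation in middle-aged mice. For age in irradiated mice they were 3 with the authors' values, 2 without background correction, 4 with median scaling, 2 without a detection filter, 6 with weights, 3 with brightness and 1 without the bright arrays, against 0. For middle-aged irradiated against young unirradiated (2 genes), they were 1 with the authors' values, 1 without background correction, 1 with median scaling, 10 with the mean of probes, 1 with detection on all arrays, 35 with weights, 8 without the dim arrays, 0 without the muscle-rich tumours, 4 without the bright and 7 without the dim and bright arrays. Leaving out 1 array gave at most 1 gene for irradiation in young mice, 0 in middle-aged mice, 3 for age in irradiated mice, 9 for middle-aged irradiated against young unirradiated, and 0 for the difference between the irradiation effects and for the cell batches. The replicate block called 0 members, and its calls for middle-aged irradiated against young unirradiated were 0; it changed no other call.

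The member median turned with scaling. With the authors' values it was -0.17 for age in unirradiated mice, -0.042 for irradiation of young and 0.091 of middle-aged mice, and 0.19 for the difference between these effects. With median scaling it was -0.38, -0.73, 0.49 and 1.23 in the same order, 0.80 for age in irradiated mice, 0.15 for middle-aged irradiated against young unirradiated and 0.56 for the cell batches. Median scaling also moved the medians over all genes, though not by the same amounts as those of the members. The medians over all genes were -0.068, -0.49, 0.29, 0.78, 0.71, 0.19 and 0.43 in that order. Members minus all genes came to -0.31, -0.24, 0.20, 0.45, 0.095, -0.038 and 0.13. Leaving out 1 array gave medians of 0.01 to 0.04 for irradiation of young and -0.05 to 0.03 of middle-aged mice, -0.00 to 0.03 for age in irradiated mice, 0.01 to 0.07 for middle-aged irradiated against young unirradiated, -0.04 to 0.01 for the difference between the effects and -0.09 to 0.03 for the cell batches.

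Single members that changed sign, none of them called, did so mostly with median scaling, where the median over all genes also moved, as given above. For age in irradiated mice these were Atp5a1 (0.50), Ndufb5 (0.32) and Ndufs7 (0.57); for age in unirradiated mice Atp5o (-0.25) and Ndufa9 (-0.056); for irradiation in young mice Atp5c1 (-0.62), Cycs (-0.65) and Ndufs8 (-0.59); in middle-aged mice Ndufa1 (0.37), Ndufa5 (0.24) and Ndufb3 (0.24); and for the difference between these effects Ndufa9 (1.02), Ndufb3 (0.92) and Ndufb8 (1.23). The authors' values turned Atp5b for age in irradiated mice (-0.026) and Ndufb8 for the difference (0.11). The mean of probes turned Cycs for irradiation in young mice (-0.061) and for middle-aged irradiated against young unirradiated (-0.012), and Ndufb8 for the difference (0.060). That mean takes in the further probes given above, which for these genes lay on the other side of 0 in these comparisons. The causes of the sign changes with the authors' values were not tested. Normalizing the tumour arrays alone was not run for tumours against cells. Members with dim probes, such as Cox7a2 and Sdhd, have the least signal over background, and the lone cell sample limits the comparison with cells.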
